A study of Arabidopsis thaliana with 60 samples.

Results

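The comparison described here sets 5 azole compounds against 2 other compounds in Arabidopsis thaliana seedlings after 12 h of treatment. Its members are 14 of the 60 Affymetrix ATH1 arrays of the series, chosen by their labels. Of these, 10 arrays are of propiconazole, uniconazole, paclobutrazol, Brz220 and Brz91, each at 10 µM. The other 4 arrays are of prohexadione at 10 µM and PNO8 at 1 µM. Each treatment has 2 arrays, numbered as replicate 1 and replicate 2. All arrays hold total RNA of whole seedlings of the accession Col-0, grown for 7 days, and belong to the bracket that the labels call F2. That bracket also has 2 mock arrays at 12 h, which have no weight in the comparison and are set beside it as a reference level. The same 7 treatments were also given for 3 h, in the bracket F1. Nothing in the labels ties replicate numbers to separate cultures, so p-values reflect the variation among arrays only, and that variation may be technical. The dose of PNO8 differs from that of the other treatments, so the difference from prohexadione alone, at the same dose as the azoles, is given for each named gene whose call ended in that form.

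Azoles are compounds with a nitrogen heterocycle that can bind the haem iron of cytochrome P450 enzymes and so block them. Several steps of gibberellin and brassinosteroid synthesis in plants are P450 reactions. Paclobutrazol and uniconazole are growth retardants known as inhibitors of an early P450 step of gibberellin synthesis, and propiconazole is a fungicide directed at a sterol demethylase of fungi that also lowers brassinosteroid synthesis in plants. Brz220 and Brz91 are code names, counted among the azoles by the rule of the comparison. Prohexadione is a growth retardant of another kind, which mimics oxoglutarate and inhibits late, oxoglutarate-dependent steps of gibberellin synthesis. PNO8 is known here only by its code name. Both hormones promote cell elongation, which in seedlings goes along with enzymes that loosen and rebuild the cell wall.

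Intensities of all arrays of replicate 1 had a 2% trimmed mean of 1013 to 1014 and those of replicate 2 of 1430.4 to 1432, so the replicate number was a block in all fits other than those said to have none, and a range over both replicates also holds this offset. RNA quality, judged by how far the 3′ actin signal exceeded the 5′ actin signal, gave ratios of 1.23 to 1.81 (median 1.59) on the azole arrays and 1.49 to 1.63 (median 1.57) on the other 4. Markers of leaf (PRK, 19498 to 43697) and of root (PYK10, 16705 to 53863) were bright on every array of the bracket, and 0 of 2 leaf, 0 of 3 root, 0 of 5 seed and 0 of 1 flower markers differed between the classes past an adjusted p of 0.05 (hereafter called), against 1.78% of all probe sets tested. Differences below are of log2(intensity + 133.4), given ± SE. In whole seedlings, fewer cells of a type and less RNA per cell cannot be told apart.

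The azoles differed from prohexadione and PNO8 in a small group of genes, some of them strongly. Of 17301 probe sets tested, 308 (1.78%) passed an adjusted p of 0.05 with limma, 120 of them higher (0.694%) and 188 lower (1.09%) under the azoles. The median size of these differences was 0.54 on the log2 scale, and 14 higher and 22 lower probe sets passed a log2 difference of 1. The median over all probe sets was -0.02, and 2029 probe sets (11.7%) had an unadjusted p under 0.05. Groups were separate in 160 of the 308, where all 5 azole arrays lay beyond both other arrays in replicate 1 and again in replicate 2, 66 above and 94 below. Over all probe sets tested, 136 (0.786%) lay above and 214 (1.24%) below in this way, 2.02% in either direction. The 95% interval of a difference reached 0.25 to each side at the median probe set. Prohexadione and PNO8 have 2 arrays each, and the count fell to 115 without PNO8 replicate 2, of which 113 were among the 308, and to 195 without prohexadione replicate 2.

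The lowest gene under the azoles was AT1G29660, which encodes a GDSL esterase/lipase, a family of secreted lipid hydrolases. In replicate 1 its intensity was 340.2 to 878 (median 464) on the azole arrays, 3770.3 with prohexadione and 3390.0 with PNO8. In replicate 2 it was 589 to 1161 (median 698) with azoles, 3279.7 with prohexadione and 5416 with PNO8. All azole arrays were far below the others, and the log2 difference was -2.37 ± 0.11 (SE, 10 arrays against 4, adjusted p = 3.35e-18). Separation within each replicate was a condition for the 12 highest and 12 lowest named genes, so it is not a result for them. A further pair of GDSL esterase/lipase genes was lower too. AT4G18970 had intensities of 495 to 895 (median 603) under azoles against 1487 and 2181 with prohexadione and PNO8 in replicate 1, and 593 to 1333 (median 996) against 1409 and 3121 in replicate 2. Its log2 difference was -1.17 ± 0.12 (adjusted p = 1.05e-08), and the highest azole array of replicate 2 came close to prohexadione. AT1G75900 read 317 to 514 over all azole arrays and 757 to 1345 over the others, a difference of -1.01 ± 0.12 (adjusted p = 5.16e-07).

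Genes of cell wall loosening were among the lower ones. XTH19 encodes a xyloglucan endotransglucosylase/hydrolase, an enzyme that cuts and rejoins the xyloglucan tethers of the wall. Its intensity was 682 to 1200.3 (median 845) under azoles in replicate 1, against 1468 with prohexadione and 1773 with PNO8. In replicate 2 the azole arrays read 539 to 1047 (median 851), prohexadione 1409 and PNO8 2955. The groups did not overlap, which the choice of this gene required, and prohexadione lay between the azoles and PNO8 in both replicates. The difference was -1.0 ± 0.17 (adjusted p = 0.000331), but -0.69 with an adjusted p of 0.144 against prohexadione alone. EXPA8, an expansin that loosens the wall without cutting it, differed by -1.09 ± 0.18 (adjusted p = 0.00012), with azole arrays from 305 to 1367 and the others from 1014 to 2616. Its groups overlapped, since Brz91 replicate 2 at 1367 and paclobutrazol replicate 2 at 1113 lay above prohexadione replicate 2 at 1067. Against prohexadione alone EXPA8 differed by -0.61, with an adjusted p of 0.238. AT3G26960, of a pollen allergen and extensin family of secreted proteins, had a difference of -0.68 ± 0.17 (adjusted p = 0.0287). AT3G06770, a pectin lyase-like protein of the polygalacturonase kind, had a difference of -0.67 ± 0.09 (adjusted p = 3.37e-06).

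AT2G29500, AT1G53540 and AT5G51440 encode small heat shock proteins, chaperones that bind unfolding proteins. AT2G29500 and AT5G51440 are among the 12 lowest named genes, and AT1G53540 was named for its time difference. None of them was called against prohexadione alone, and of the list of heat shock genes, which does not hold them, 2 members were measured and 0 called. The intensity of AT2G29500 in replicate 1 was 158 to 327 (median 221) under azoles, 472 with prohexadione and 489 with PNO8. In replicate 2 the azole arrays read 264 to 465 (median 417) and prohexadione 551, while PNO8 read 6411. The 1 PNO8 array of replicate 2 stood far above all others. The class difference was -1.40 ± 0.23 (adjusted p = 0.000179), and it moved to -0.65 (adjusted p = 0.0387) without that array. Against prohexadione alone the difference was -0.58 with an adjusted p of 0.493. AT1G53540 read 152 and 264 with prohexadione, inside the azole ranges of 70.5 to 213 and 122 to 421, and 1215 and 4261 with PNO8. Its class difference of -1.50 ± 0.20 split into -2.93 ± 0.26 against PNO8 (adjusted p = 3.29e-10) and -0.08 ± 0.26 against prohexadione (adjusted p = 0.958). AT5G51440, the third small heat shock protein gene, differed by -0.97 ± 0.18 (adjusted p = 0.000599), and the adjusted p was 0.0916 without PNO8 replicate 2. It was at -0.66 ± 0.23 against prohexadione (adjusted p = 0.183) and -1.28 ± 0.23 against PNO8 (adjusted p = 0.00127).

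The remaining lower genes among the 12 lowest have other roles. AT4G29020 encodes a glycine-rich protein. Its azole arrays read 4504 to 5498 (median 4980.1) in replicate 1 and 6874 to 8969 (median 7605) in replicate 2, against 8616 and 14850.2 with prohexadione and 8478 and 11813 with PNO8. The groups did not overlap within either replicate, which the choice of this gene required, and the difference was -0.75 ± 0.08 (adjusted p = 3.36e-08). AT5G41400, a RING zinc finger protein, differed by -0.83 ± 0.14 (adjusted p = 0.000284). AT2G47440, a protein with tetratricopeptide repeats, differed by -0.74 ± 0.10 (adjusted p = 3.02e-06). AT5G44440, a berberine bridge enzyme-like oxidase, differed by -0.83 ± 0.17 (adjusted p = 0.00397), but this call ended without prohexadione replicate 2 (adjusted p = 0.113) or PNO8 replicate 1 (adjusted p = 0.0634). The call of AT3G26960 ended without any 1 of 8 arrays, with adjusted p-values from 0.0535 to 0.359; these were propiconazole replicate 1, uniconazole replicate 2, paclobutrazol replicate 1, Brz220 replicate 2, Brz91 replicate 2, prohexadione replicate 1 and both PNO8 arrays.

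The highest named gene under the azoles was AT5G01740, which encodes a protein of the nuclear transport factor NTF2-like fold. Its intensity in replicate 1 was 3158 to 4149 (median 3650.4) on azole arrays, 701 with prohexadione and 1081 with PNO8. In replicate 2 the values were 4692 to 5779 (median 5607), 1052 and 1175. Every azole array was brighter than both other arrays of its replicate, which the choice of this gene required, and the gap was wide. The log2 difference was 2.04 ± 0.13 (adjusted p = 4.88e-15). AT5G22580 encodes a stress-responsive alpha-beta barrel protein. It read 6033 to 9392 (median 8354) under azoles in replicate 1, 2413 with prohexadione and 3123 with PNO8. The replicate 2 values were 10076 to 11644 (median 11152), 2313 and 3746, and the difference was 1.67 ± 0.11 (adjusted p = 2.96e-14). AT5G57785, a protein of unknown function, had azole arrays from 5453 to 13404 and others from 3065 to 4556, and differed by 1.30 ± 0.12 (adjusted p = 5.72e-10). Of the 14 higher probe sets past a log2 difference of 1, including the highest (256598_at, 2.06 ± 0.10), 10 were not named in the gene table used here.

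The other higher genes include enzymes that modify small molecules. UGT84A1, a glucosyltransferase of hydroxycinnamic acids, was dim: it read 56.2 to 323 under azoles and 10.7 to 20.4 with prohexadione and PNO8. All 4 of those values lay far below the value of 133.4 added before the logarithm, and mock read 136.6 and 25.7. The difference of UGT84A1 was 1.02 ± 0.23 (adjusted p = 0.00936). It depends on the added value, and no ratio is read from intensities this low. AT5G05880, another UDP-glycosyltransferase, read 628 to 916 under azoles and 311 to 520.1 otherwise, and differed by 0.77 ± 0.12 (adjusted p = 9.57e-05). AT2G39980, an acyltransferase of the HXXXD type, differed by 0.72 ± 0.11 (adjusted p = 4.45e-05). AT1G48690, of the GH3 family of acyl-amido synthetases, differed by 0.87 ± 0.23 (adjusted p = 0.0339). It was dim too, at 99.9 to 282 under azoles. With prohexadione and PNO8 it read 26.2 to 145, near or under the added 133.4. AT1G02360, a chitinase family protein, differed by 0.70 ± 0.15 (adjusted p = 0.00556). AT1G44830, a transcription factor of the AP2/ERF type, was at 0.74 ± 0.12 (adjusted p = 0.000197), and ARL, an ARGOS-like gene that promotes organ growth through cell expansion, at 0.72 ± 0.12 (adjusted p = 0.000161). AT1G52200, of the PLAC8 family, differed by 0.71 ± 0.14 (adjusted p = 0.00228), and AT5G66985, of unknown function, by 0.79 ± 0.19 (adjusted p = 0.018).

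Some of these calls rested on single arrays or on the model. That of UGT84A1 ended without any 1 of the 4 prohexadione and PNO8 arrays (adjusted p 0.0521 to 0.091). That of AT5G66985 ended without prohexadione replicate 2 (0.15) or PNO8 replicate 1 (0.173), and that of AT1G02360 without prohexadione replicate 1 (0.105) or PNO8 replicate 2 (0.114). AT1G48690 lost its call without any 1 of 10 arrays (adjusted p 0.051 to 0.24), namely both of propiconazole, prohexadione and PNO8, uniconazole replicate 1, paclobutrazol replicate 2, Brz220 replicate 1 and Brz91 replicate 2. With a single mean for each class in place of 1 per compound, the calls of EXPA8 (adjusted p = 0.061), AT2G29500 (0.0738) and AT1G53540 (0.117) ended. Under that model those of AT2G43550 (adjusted p = 0.0895), AT5G04120 (0.166), XTH16 (0.162), CYP71B22 (0.0647) and CYP71B23 (0.114) ended too. Against prohexadione alone UGT84A1 was at 1.04 (adjusted p = 0.0726), AT1G48690 at 1.04 (0.0669), AT5G66985 at 0.71 (0.185) and AT1G02360 at 0.47 (0.338). Against PNO8 alone, calls ended for UGT84A1, AT1G48690, AT5G66985, AT3G26960, AT5G44440, AT2G43550, CYP71B22, CYP71B23 and EXPB1 (adjusted p 0.089 to 0.577). With no replicate block the calls of AT1G48690, AT5G66985, AT2G39980, ARL, AT1G52200, AT1G02360, AT2G43550, AT3G06770, AT3G26960, AT2G47440, CYP71B22, CYP71B23, XTH16, CSLC04 and EXPB1 ended (adjusted p 0.0546 to 0.99998). AT5G01740, AT5G22580, AT5G57785, AT5G05880, AT1G44830, AT1G29660, AT4G18970, AT1G75900, AT4G29020 and AT5G41400 kept their calls in every alternative that gave a test.

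**Figure D1:**
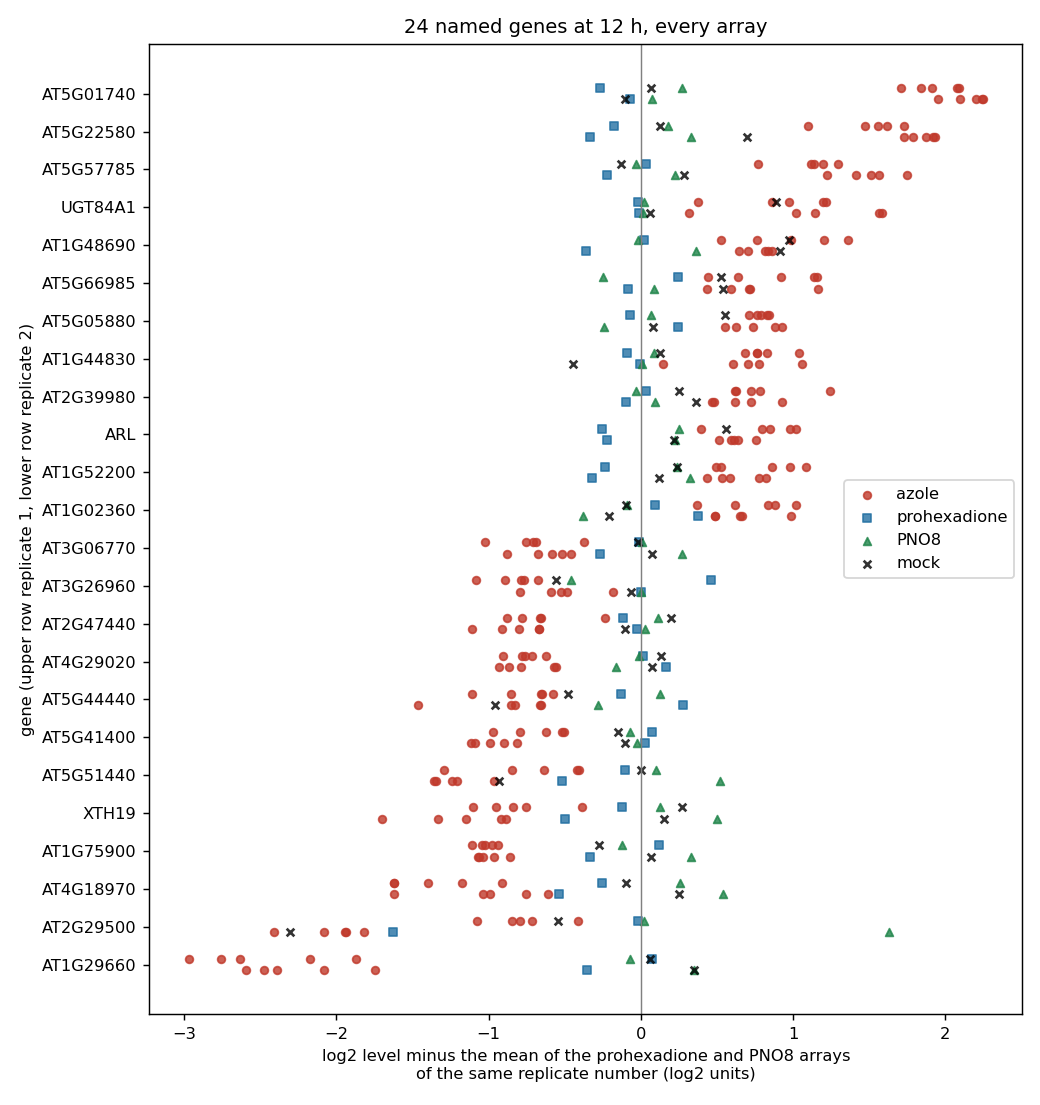
Level of the 12 highest and 12 lowest named genes on every array at 12 h, as log2(intensity + 133.4) minus the mean of the prohexadione and PNO8 arrays of the same replicate number. Each point is 1 array, with replicate 1 in the upper and replicate 2 in the lower row of a gene. In each row the 5 azole arrays lie beyond both other arrays, which the choice of these genes fixes, while the mock arrays lie with the azoles for some genes and with the others for most.

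The other 2 compounds did not give the same level for every gene. Between prohexadione and PNO8 themselves, 48 probe sets (0.277%) were called, 22 higher (0.127%) and 26 lower (0.15%) with prohexadione, with doses of 10 µM and 1 µM. Without prohexadione replicate 1 the count was 31, and without PNO8 replicate 2 it was 9. This difference and the class difference are computed from separate combinations of the same arrays. Of the 308 probe sets called for the class, 18 (5.84%) were also called between prohexadione and PNO8. All 5 of these that were higher under the azoles, and 6 of the 13 that were lower, had the higher level with PNO8. Among named genes, AT1G53540 differed by -2.86 ± 0.33 between prohexadione and PNO8 (adjusted p = 3.58e-06), and AT2G29500 differed by -1.65 with an adjusted p of 0.0556. For AT5G01740 the prohexadione and PNO8 arrays differed by -0.34 ± 0.21 (adjusted p = 0.739) and for AT1G29660 by -0.28 ± 0.19 (adjusted p = 0.795).

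At matched dose, the azoles against prohexadione alone gave 258 called probe sets (1.49%), 152 higher (0.879%) and 106 lower (0.613%). Against PNO8 alone, at unequal doses, 161 were called (0.931%), 48 higher (0.277%) and 113 lower (0.653%). Without prohexadione replicate 1 or 2 the former count was 114 or 139, and without PNO8 replicate 1 or 2 the latter was 101 or 18. The share of higher calls was 39.0% for both together, 58.9% for prohexadione and 29.8% for PNO8. These comparisons share the azole arrays. AT5G01740 differed by 2.21 ± 0.16 against prohexadione and 1.87 ± 0.16 against PNO8, and AT1G29660 by -2.23 ± 0.15 and -2.51 ± 0.15. ARL and AT1G52200 were called against prohexadione, at 0.95 ± 0.15 (adjusted p = 0.000151) and 0.99 ± 0.19 (adjusted p = 0.00127), but at 0.48 and 0.43 against PNO8 had adjusted p-values of 0.183 and 0.463. AT5G04120, of the phosphoglycerate mutase family, was at -1.41 ± 0.23 against prohexadione (adjusted p = 0.000213) and -0.41 ± 0.23 against PNO8 (adjusted p = 0.632).

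**Figure D2:**
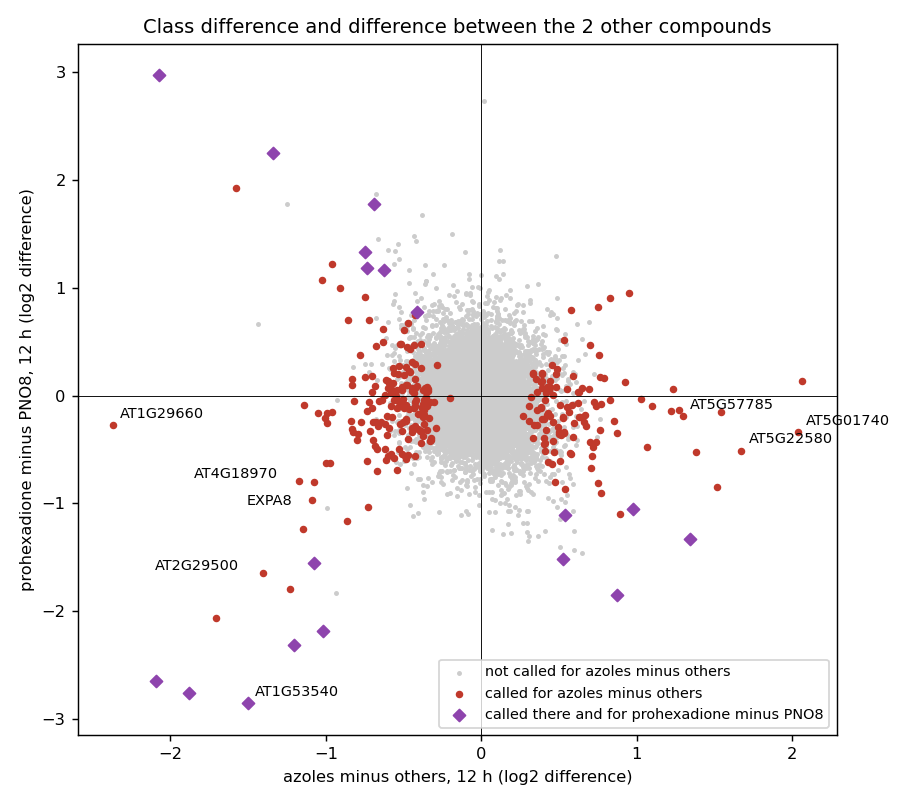
Difference between azoles and the other compounds (x axis) against that between prohexadione and PNO8 (y axis), both in log2 units at 12 h, for all 17301 probe sets. Red points were called for the class, and purple diamonds, 18 of the 308, were called on both axes. AT5G01740, AT5G22580, AT5G57785 and AT1G29660 lie near the middle of the y axis, while AT1G53540 lies far from it.

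The mock arrays, which the comparison does not use, show on which side the untreated level lay. For 224 of the 308 called probe sets (72.7%) the mock level was nearer to the other compounds than to the azoles. Over all probe sets tested this share was 51.8%, and among the 160 with separate groups it was 83.8%. AT5G01740 read 921 and 1027 on the mock arrays, beside its low values with prohexadione and PNO8, and the azoles were 2.06 above mock on the log2 scale. AT1G29660 read 3729 and 5406 with mock, and the azoles were at -2.57 relative to it, prohexadione at -0.34 and PNO8 at -0.06. AT5G57785, AT1G75900, AT4G29020 and AT5G41400 also had mock levels close to the other compounds. Some genes had the opposite position. For AT1G48690 the azoles were at -0.07 relative to mock, while prohexadione was at -1.11 and PNO8 at -0.77. For AT5G44440 the azoles were at -0.11, prohexadione at 0.79 and PNO8 at 0.64, and for AT2G29500 at 0.02, 0.60 and 2.25. For AT1G53540 they were at 0.27, 0.34 and 3.20. AT5G22580 lay between, with azoles at 1.26, prohexadione at -0.67 and PNO8 at -0.16. These positions rest on 2 mock arrays and were not tested.

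Among themselves, the 5 azoles were compared in all 10 pairs at 10 µM and 12 h. With p-values adjusted over the 10 pairs and all probe sets, 0 differences were called by limma, the smallest adjusted p being 0.050022. At an unadjusted p under 0.05 there were 8631 (4.99% of the tests). A limma F test of equal levels in all 5 azoles called 0 probe sets (904 unadjusted, 5.23%, smallest adjusted p 0.0728). Pairs with uniconazole had 6.57% of probe sets under the unadjusted threshold, against 4.4% with paclobutrazol, 4.55% with propiconazole, 4.67% with Brz91 and 4.76% with Brz220. The 95% interval of a pair difference reached 0.42 to each side at the median probe set, so with 2 arrays per compound smaller differences could not be told from 0 there. For AT5G01740 the widest gap, uniconazole minus paclobutrazol, was 0.26 (95% interval -0.17 to 0.69). For AT5G57785 it was 0.29, for propiconazole minus Brz91 (-0.11 to 0.70). Without uniconazole replicate 2, 15 pair differences were called.

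With p-values adjusted within a single pair, 4 probe sets were called for paclobutrazol minus Brz91 (0.0231%), 2 for paclobutrazol minus Brz220 (0.0116%) and 1 each (0.00578%) for propiconazole and for uniconazole minus paclobutrazol. The pairs with the smallest p-values held paclobutrazol, often opposite Brz220. AT1G47400, a short peptide gene of iron deficiency, read 1412 and 1656 with paclobutrazol and 5242 and 5150.0 with Brz220. Propiconazole was at 3259 and 4506, and mock at 1921 and 2602. Paclobutrazol minus Brz220 was -1.68 (95% interval -2.25 to -1.11), with an adjusted p of 0.0104 within that pair and 0.050022 over all pairs. AT4G36700, a cupin family protein, had -1.84 (-2.53 to -1.15) for the same pair (0.0358 and 0.129). AT1G29660 read 878 and 1161 with paclobutrazol, the highest azole values in both replicates, and 340.2 and 589 with Brz220, the lowest. That difference was 0.97 (0.58 to 1.35), with an adjusted p of 0.129 over all pairs. For EXPA8 it was 1.33 (0.73 to 1.93, adjusted p = 0.263).

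Uniconazole and paclobutrazol, which are close analogs that differ by a double bond next to the triazole, differed in AT2G43550, a defensin-like peptide gene. It read 927 and 1137 with uniconazole and 2019 and 2034 with paclobutrazol. The difference was -0.90 (95% interval -1.20 to -0.59), with an adjusted p of 0.015 within the pair and 0.050022 over all pairs. No other named gene was called for these analogs. AT5G04120 was lowest with Brz91, at 57.4 and 22.9, and highest among azoles with paclobutrazol, at 300.1 and 480.0. Paclobutrazol minus Brz91 was 1.58 (0.97 to 2.19), with an adjusted p of 0.036 within the pair and 0.129 over all pairs. A p that misses the threshold does not show that the azoles act alike.

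Each azole was also set against prohexadione at the same dose, with p-values adjusted over the 5 contrasts, which share the prohexadione arrays. Uniconazole gave 149 called probe sets (0.861%), Brz91 129 (0.746%), Brz220 107 (0.618%), propiconazole 104 (0.601%) and paclobutrazol 64 (0.37%). With 1 array left out these counts were lowest at 62, 54, 45, 55 and 26, without uniconazole replicate 1, prohexadione replicate 1, Brz220 replicate 2, prohexadione replicate 1 and paclobutrazol replicate 1. AT5G01740 was called for each azole, at 2.07 ± 0.21 to 2.33 ± 0.21, as were AT5G22580 (1.70 to 2.08), AT5G57785 (1.24 to 1.53) and AT1G29660 (-2.64 to -1.67). AT4G29020 (-1.01 to -0.68) and AT1G75900 (-0.94 to -0.84) were called for each azole too. AT4G18970 was called for Brz220 at -1.22 ± 0.20, uniconazole at -0.91 ± 0.20 and propiconazole at -0.82 ± 0.20. Its values were -0.57 for Brz91 (adjusted p = 0.272) and -0.36 for paclobutrazol (adjusted p = 0.637). EXPA8 was called for Brz220 at -1.32 ± 0.30 (adjusted p = 0.0191), and lay at 0.02 for paclobutrazol and -0.09 for Brz91. AT1G47400 was called for Brz220 at 1.46 ± 0.28 (adjusted p = 0.00348). The order of these counts was not tested.

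**Figure D3:**
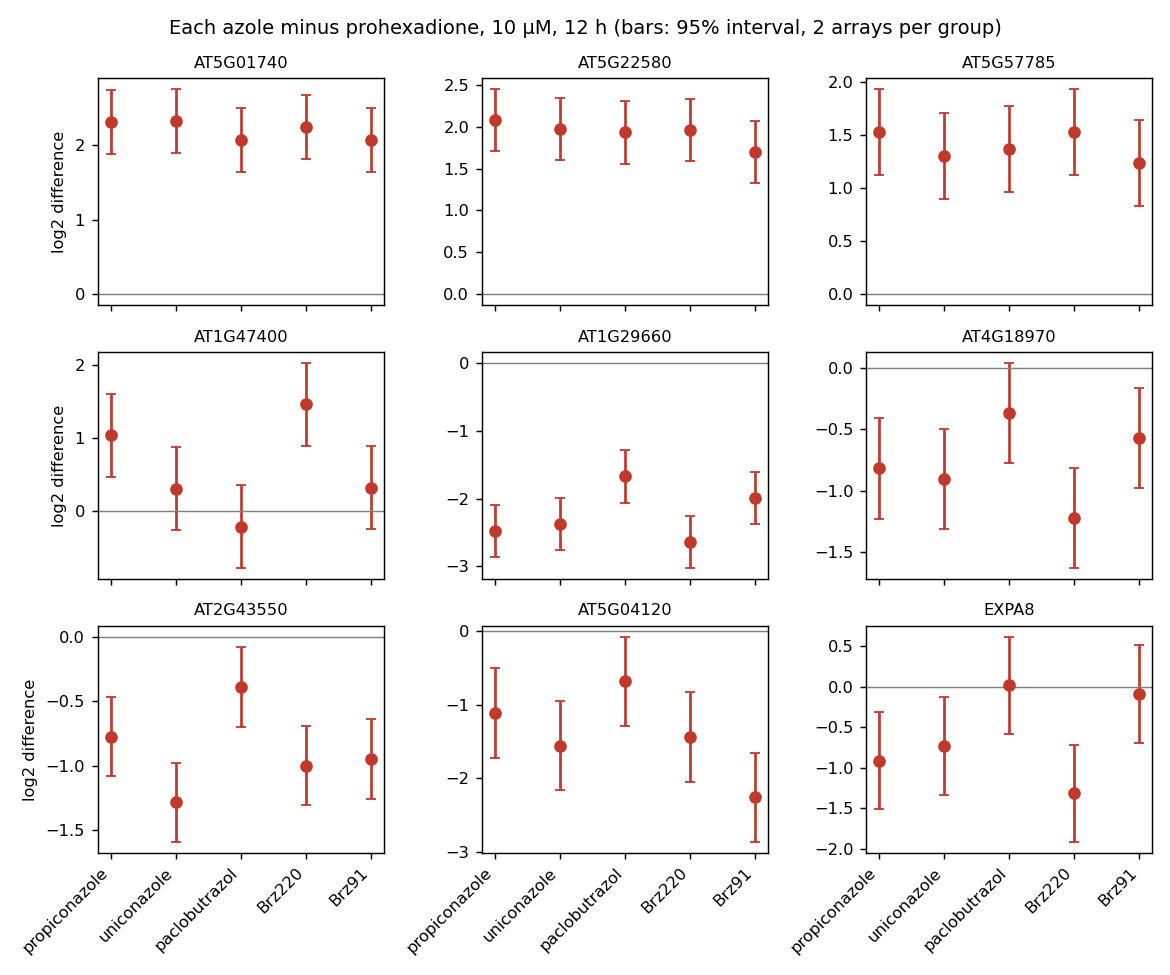
Log2 difference between each azole and prohexadione at 10 µM and 12 h for 9 named genes, with 95% intervals from the limma fit (2 arrays per group). For AT5G01740, AT5G22580, AT5G57785 and AT1G29660 all 5 intervals lie on 1 side of 0, while for AT1G47400 and EXPA8 paclobutrazol lies near 0 and Brz220 far from it.

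Gene lists by function give the setting of these genes. They cover only genes with a named probe set above the filter on low values, such as 15 of 36 expansins, 8 of 33 xyloglucan endotransglucosylases, 9 of 73 wall polysaccharide synthases, 13 of 234 cytochromes P450 and 40 of 64 UGT glycosyltransferases. Of 15 expansin genes measured, 2 were lower (EXPA8, and EXPB1 at -0.60 ± 0.14, adjusted p = 0.00985) and 0 higher, against 1.09% lower and 0.694% higher over all probe sets tested. Values under 0 were found for 12 of them, against 55.3% of all probe sets, and their median was -0.14 against -0.02. Of 8 xyloglucan endotransglucosylases, 2 were lower (XTH19, and XTH16 at -0.45 ± 0.12, adjusted p = 0.0408), against the same 1.09%, and 7 lay under 0, with a median of -0.21. Against prohexadione alone XTH16 was at -0.28 (adjusted p = 0.55). XTH33 was at -0.71 ± 0.20 with an adjusted p of 0.0539. Of 9 wall polysaccharide synthases, 1 was lower, CSLC04, which makes the glucan backbone of xyloglucan, at -0.45 ± 0.08 (adjusted p = 0.000299). It was at -0.30 against prohexadione alone (adjusted p = 0.164), and the list's median was -0.18. The call of EXPB1 ended without prohexadione replicate 2 (adjusted p = 0.0973), PNO8 replicate 1 (0.0776) or PNO8 replicate 2 (0.069). That of XTH16 ended without any 1 of 10 arrays (0.0551 to 0.504), which were both of propiconazole, uniconazole and prohexadione, paclobutrazol replicate 2, Brz220 replicate 2, Brz91 replicate 2 and PNO8 replicate 2.

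Of 13 cytochrome P450 genes measured 2 were higher and 0 lower, against 0.694% and 1.09% of all probe sets, with a median of 0.09. They were CYP71B22 at 0.66 ± 0.16 (adjusted p = 0.0147) and CYP71B23 at 0.59 ± 0.15 (adjusted p = 0.0239), enzymes of a large P450 family. These 2 genes lie close together on the chromosome. Apart from CYP84A4, all measured members were of the CYP71B subfamily, so the counts do not speak for P450 genes in general. CYP71B22 read 238 to 709 under azoles and 155 to 282 with the others, so the groups overlapped. Its call ended without any 1 of the 4 prohexadione and PNO8 arrays (adjusted p 0.0516 to 0.137). That of CYP71B23 ended without propiconazole replicate 1 (0.0584), uniconazole replicate 2 (0.052), paclobutrazol replicate 2 (0.0624), prohexadione replicate 2 (0.338), PNO8 replicate 1 (0.186) or PNO8 replicate 2 (0.0622), and it was at 0.50 against prohexadione alone (0.252). Of 40 glycosyltransferase genes on the UGT list 1 was higher, UGT84A1, and their median was 0.01. This list, matched by name, does not hold AT5G05880, the other UDP-glycosyltransferase gene named above as higher. Of 3 ethylene genes 1 was higher, ARL. Calls were 0 of 7 for gibberellin perception and DELLA genes, including the receptors GID1A (-0.04), GID1B (0.07) and GID1C (-0.11). They were also 0 of 9 for glutathione transferases, 0 of 11 for auxin response, 0 of 27 for photosystem genes and 0 of 5 for jasmonate. At the share of 1.78% called over all probe sets, lists of these sizes would hold few calls or none, so these counts set none of them apart. Of 4 flavonoid genes 0 were called. DFR, which makes anthocyanin precursors, was at -1.16 against prohexadione and 0.10 against PNO8. Genes of gibberellin and brassinosteroid synthesis had no named probe set and are not analysed here.

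At 3 h, the same 7 treatments on other arrays gave 359 called probe sets (2.08%), 137 higher (0.792%) and 222 lower (1.28%) under the azoles. Of the calls, 43 were shared with 12 h in the same direction, 21 higher and 22 lower, which is 14% of the 12 h calls and 12.0% of the 3 h calls, and 3 were shared in opposite directions. Without PNO8 replicate 2 of the 3 h arrays, 96 were called at 3 h. The 3 h difference was not split between prohexadione and PNO8. AT5G01740 was already higher at 3 h, by 1.64 ± 0.13 (adjusted p = 7.44e-12), and so was AT5G57785, by 0.78 ± 0.12 (adjusted p = 5.01e-05). AT1G29660 was lower at 3 h, at -0.76 ± 0.11 (adjusted p = 3.26e-05), and so were EXPA8 at -0.74 ± 0.18 (adjusted p = 0.0161), AT1G75900 at -0.45 ± 0.12 (adjusted p = 0.0429) and CSLC04 at -0.33 ± 0.08 (adjusted p = 0.0124).

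The difference between the times was called for 118 probe sets (0.682%), 84 with a higher value at 12 h (0.486%) and 34 with a lower value (0.197%). Without PNO8 replicate 2 of the 12 h arrays 75 were called, and 71 without that of the 3 h arrays. Of the 308 called at 12 h, 53 were among them, all with a time difference of the same sign as the 12 h value, a direction that the choice at 12 h favours. The 3 h arrays of these treatments are of bracket F1 and the 12 h arrays of F2, so time and bracket cannot be told apart. AT5G22580 was at 0.21 ± 0.11 at 3 h and had a time difference of 1.47 ± 0.15 (adjusted p = 1.27e-07). AT1G29660 moved by -1.61 ± 0.16 (adjusted p = 4.69e-08) and AT4G18970, at 0.15 at 3 h, by -1.32 ± 0.17 (adjusted p = 1.01e-05). AT4G29020 moved by -0.85 ± 0.11 (adjusted p = 2.16e-05), and AT2G39980 by 0.78 ± 0.15 (adjusted p = 0.00389). For AT5G01740 the time difference of 0.40 ± 0.18 had an adjusted p of 0.426. The tau class glutathione transferase gene GSTU25 was at -2.27 ± 0.25 at 3 h (adjusted p = 1.07e-07) and at -0.27 ± 0.25 at 12 h (adjusted p = 0.751), a time difference of 2.00 ± 0.36 (adjusted p = 0.00131). Relative to mock at 12 h it was at 1.24 with PNO8, 0.16 with prohexadione and 0.43 with the azoles. Which of the compounds carries its 3 h difference was not tested.

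**Figure D4:**
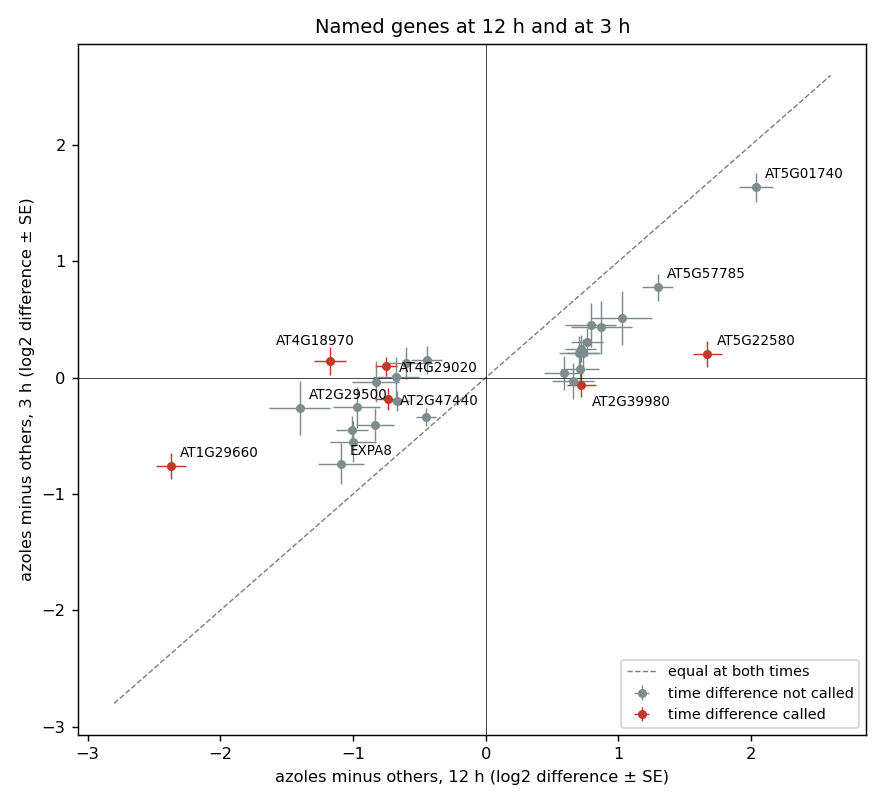
Log2 difference between azoles and the other compounds at 12 h (x axis) and 3 h (y axis) for 30 genes named at 12 h, with bars of 1 SE. Red points, 6 of the 30, had a called time difference. AT5G01740 lies near the dashed line of equal values, while AT5G22580, AT4G18970 and AT1G29660 lie nearer to 0 at 3 h than at 12 h.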

How the data were processed

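The values used are linear intensities per probe set, deposited by the authors, and the tool was MAS5 per the submitters' processing notes (version and scaling target: not given in the sources used here). Control probe sets, 64 in number, were left out, which leaves 22746. Array medians at 12 h were 374 to 562; these arrays give no depth, and the number of arrays limits the precision. Levels are log2(intensity + 133.4), where the constant is the 20th percentile of an array, as the median of all arrays; this understates differences of dim probe sets. A probe set was tested if 2 or more arrays showed it above their own 40th percentile, which left 17301. The model (limma 3.58.1, R 4.3.3) used all 60 arrays, with a mean for each group and a variance prior that follows intensity. Bracket and replicate number (6 scaling sets) formed a block, because the deposited values are scaled to a common level within each set only and the rule of the comparison asks for it. There were 27 residual degrees of freedom. Tests were two-sided, with Benjamini-Hochberg adjustment over all probe sets and a threshold of 0.05. "Called" means past that threshold.

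The class difference is the mean of the 5 azole means minus the mean of the prohexadione and PNO8 means. On simulated data with 17301 probe sets this comparison recovered 48.8% of changes of log2 size 0.5, 95% of size 1 and 100% of size 2, with 5 false calls among 161. There, all compounds of a class had the same level and the noise was independent between arrays. Differences between compounds of a class were not simulated, so these rates need not hold where such differences exist. A probe table of the platform annotation named exactly 1 gene for 13513 probe sets and several for 503, and 8730 were not listed or had no gene. Names were updated from the TAIR10.1 table for 13436, and its coordinates are not given here. Of the kept probe sets 55.5% had a name, and of the 308 called 39.0%. In lists, a gene's brightest probe set was used. Named genes are the 12 highest and 12 lowest called genes with separate groups in both replicates, called list members (at most 3 per list), called genes of pairs (within the pair), and the 3 highest and 3 lowest for the time difference; some 3 h genes were left out. The members, gene lists and tests were chosen with earlier results of these data known. Alternatives changed the block, the arrays fitted, the class model, normalization, pseudocount, filter, comparator and azoles included, and left out each array. Promoter motifs were not analysed here.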

Additional observations from a re-analysis of the deposited data

Results flagged for a closer look

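AT5G22580 was named for an array apart from the rest of its side. Among the 10 azole arrays, centred within replicate number, Brz91 replicate 1 (intensity 6033) lay below the others by a gap of 0.539 of the whole range, above Dixon's 95% limit for 10 values. It was the only such array among 74 sides of 37 named genes, where chance flags about 1 in 20.

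For other genes the azole difference at 12 h was tested against that at 3 h with limma, and the time difference was called. Here too, time and bracket cannot be told apart. AT5G22580 moved by 1.47, AT2G39980 by 0.779, AT2G47440 by -0.555, AT4G29020 by -0.849, AT4G18970 by -1.32 and AT1G29660 by -1.61. AT4G37290, which is dim on many arrays, was at -1.23 ± 0.22 at 3 h (adjusted p = 0.00079) and 0.50 ± 0.22 at 12 h (adjusted p = 0.359), a change of 1.72 (adjusted p = 0.00197). GSTU25 changed by 2.00 between the times. AT1G53540 changed by -1.64 (adjusted p = 0.000791), its 3 h difference being 0.14 (adjusted p = 0.772).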

How the results depend on the processing

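The class difference at 12 h was called for 308 probe sets, and for 63 with no replicate block, of which 62 were among the 308. It was called for 169 with 2 classes and no mean per compound, for 159 with the compound as a random block, for 161 with PNO8 alone as the comparison side and for 197 with propiconazole, uniconazole and paclobutrazol alone. A rescaling of all arrays to a common trimmed mean, chosen after the data were seen, gave 329 with the block and 229 without it. With no replicate block, the counts were 44 against prohexadione, 38 against PNO8, 13 between prohexadione and PNO8, 57 at 3 h and 21 for the time difference. They were 111 over the 5 azoles against prohexadione in place of 553, made up of 17 for paclobutrazol, 22 for uniconazole, 23 for propiconazole, 24 for Brz220 and 25 for Brz91. Quantile normalization gave 5 calls among the 10 azole pairs in place of 0.

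Replicate differences of the 8 groups at 12 h correlated between groups with r from 0.031 to 0.347 (median 0.204) over 28 pairs of groups. After rescaling to a common trimmed mean, r was -0.052 to 0.296 (median 0.175). The block thus takes up differences shared within a replicate number beyond the scaling. Whether replicate numbers pair the seedlings is not given in the labels. With 1 array left out, the class count lay between 115 and 325, with 54 to 132 higher and 61 to 193 lower. The ranges were 114 to 263 against prohexadione, 18 to 173 against PNO8, 9 to 61 between prohexadione and PNO8, 96 to 393 at 3 h and 71 to 150 for the time difference. They were 0 to 15 for azole pairs, 0 to 5 for the spread among azoles, and 263 to 523 over the 5 azoles against prohexadione, with paclobutrazol at 26 to 55, Brz220 at 45 to 98, Brz91 at 54 to 94, propiconazole at 55 to 71 and uniconazole at 62 to 112. In these fits a lone array of a group is assumed to vary like the other groups. The sign of GSTU25 at 12 h, which was not called (-0.27), turned to 0.269 with prohexadione alone and 0.0941 on replicate 1 arrays alone, and lay between -0.587 and 0.0426 with 1 array left out, the latter without PNO8 replicate 2. The causes of these shifts were not tested.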

Other observations

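Lists not described above held 0 called members at 12 h. Of 14 members measured of a list meant for transporters of iron, nitrogen and phosphate, 11 had values under 0. Their median was -0.11 against -0.02 over all probe sets. The members were matched by name and include NRT2.5, GTR1, GTR2, ZIP6 and ZIP9, so the list's title does not settle what each carries. Of the iron deficiency list, PYE was at 0.24 and BHLH101 at 0.62. FRO1 (AT5G67590), at -0.16, was matched by name alone and is not counted here as an iron deficiency gene. The list does not hold AT1G47400. The 6 salicylate defence genes had a median of 0.16, and 5 lay above 0. The 7 cell cycle genes ranged from -0.27 to 0.10. Of 10 EXORDIUM family genes, 1 was measured. This gene, EXO, which promotes growth downstream of brassinosteroids, was at -0.40 ± 0.12 (adjusted p = 0.0718). XERICO, a gene of the gibberellin and DELLA list, was at -0.26 ± 0.10 (adjusted p = 0.226).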
